A study of Homo sapiens with 6 samples.

Results

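The death-associated protein kinases are a small family of serine/threonine kinases with 5 human members, DAPK1, DAPK2, DAPK3, STK17A (also called DRAK1) and STK17B (DRAK2). The members were taken by name from a table of 78932 genes, and all 5 were found and had enough counts to be tested. The family was chosen because DAPK1 stood out in the comparison of the libraries described here, so its values in that comparison are given as a description, without a test. RNA was sequenced from 6 libraries labelled A549, an established human lung adenocarcinoma line. In 3 libraries the cells overexpressed HIF1B after transfection, and 3 libraries were labelled wild type with no agent named. HIF1B (HIF-1β, gene symbol ARNT) is the subunit that pairs with the oxygen-regulated HIF-α proteins to bind DNA. Neither the promoter of the construct, nor whether expression was transient, nor whether the cells were 1 clone is given in the sources used here. Separate cultures are not mentioned for any library, so every error and p-value reflects only how far these 6 libraries scatter, which may be technical.

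The family is best known for coupling calcium and stress signals to cell death, autophagy and contraction of the cell cortex. DAPK1, DAPK2 and DAPK3 share a closely related catalytic domain. DAPK1 and DAPK2 are switched on by calcium-bound calmodulin and by removal of an inhibitory phosphate, whereas DAPK3 lacks the calmodulin-binding region. DAPK1 is a large protein with ankyrin repeats and a death domain, was found in a screen for genes needed for interferon gamma induced death of HeLa cells, and is silenced by promoter methylation in many tumours. STK17A and STK17B resemble the others in the catalytic domain only and are found largely in the nucleus.

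Library totals were 17192137 to 24454217 counts. Levels are CPM, counts set against the library's scaled total over the 16091 genes tested, and errors are SD over n = 3 libraries. ARNT was at 139 ± 8.30 CPM in overexpression libraries, against 43.7 ± 5.67 CPM in libraries labelled wild type, which follows the group labels. A549 is known to have lost MTAP, an enzyme gene of methionine salvage. It was at 0.40 ± 0.234 CPM in overexpression libraries, against 78.1 ± 5.01 CPM in libraries labelled wild type, so the second group went against its cell line label at this gene. The other 5 tested genes of a list of cell line features, drawn up from earlier results of these data, also differed. TBXT, a notochord transcription factor gene, had 3 reads under overexpression, against 2076 ± 294 CPM with the wild-type label, and GSTM1, a glutathione transferase gene, had 2 reads, against 96.0 ± 4.19 CPM with that label. SMARCA4, a chromatin remodelling gene, was at 15.6 ± 1.83 CPM under overexpression, against 201 ± 4.33 CPM with the wild-type label. ALDH1A1, an aldehyde dehydrogenase gene, was at 8835 ± 741 CPM under overexpression, against 57.4 ± 14.6 CPM with the wild-type label, and the keratin gene KRT7 at 1481 ± 94.6 CPM, against 9.45 ± 3.79 CPM with that label. The deposited table also has 6 columns named for another lung cancer line, H460, which were not used here. It is in doubt whether the columns named A549 wild type hold A549 cells, and every fold below compares libraries by their labels only. Of 10 lung epithelial markers 7 were tested, 6 of them higher and 1 lower, and their summed level was 7882 to 8650 CPM in overexpression libraries, against 2571 to 2794 CPM in libraries labelled wild type. The defining epithelial marker CDH1 was at 228 ± 25 CPM under overexpression, against 0.672 ± 0.793 CPM with the wild-type label. The summed level of 15 leukocyte, endothelial and fibroblast markers was 43.3 to 51.0 CPM under overexpression and 17.7 to 18.6 CPM with the wild-type label. PTPRC, CD3E, CDH5 and COL1A2 were at 0 in all 6 libraries. Differences that follow HIF1B and differences that follow anything else that separates these cells cannot be told apart in any result given here.

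The sequences just before the listed transcription starts of DAPK1 and STK17B are shown because DAPK1 differed most between the groups and STK17B, which was lower in the overexpression libraries, held most copies of the letters that HIF dimers are known to bind. The windows are the 250 bases before a start, from RefSeq on GRCh38.p14, which listed 6 windows for the 5 members, a pair of them for DAPK1. In GENCODE release 29 the DAPK1, DAPK2, STK17A and STK17B genes begin upstream of their windows, so starts other than these are annotated. Capitals mark ACGTG and GCGTG on either strand (CACGT and CACGC on the strand shown).
DAPK1, chr9:87497617-87497866, plus strand: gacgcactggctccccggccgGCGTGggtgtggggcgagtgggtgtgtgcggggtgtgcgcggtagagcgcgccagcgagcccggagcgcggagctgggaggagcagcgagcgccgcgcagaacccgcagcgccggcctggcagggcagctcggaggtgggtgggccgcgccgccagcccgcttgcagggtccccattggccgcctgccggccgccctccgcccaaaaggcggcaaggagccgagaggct
DAPK1, chr9:87498332-87498581, plus strand: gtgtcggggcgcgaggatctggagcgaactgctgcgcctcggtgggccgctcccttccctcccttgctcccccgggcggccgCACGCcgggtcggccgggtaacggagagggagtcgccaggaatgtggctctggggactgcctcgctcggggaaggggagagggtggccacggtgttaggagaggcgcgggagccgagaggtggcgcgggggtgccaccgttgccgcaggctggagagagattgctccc
STK17B, chr2:196171579-196171828, minus strand: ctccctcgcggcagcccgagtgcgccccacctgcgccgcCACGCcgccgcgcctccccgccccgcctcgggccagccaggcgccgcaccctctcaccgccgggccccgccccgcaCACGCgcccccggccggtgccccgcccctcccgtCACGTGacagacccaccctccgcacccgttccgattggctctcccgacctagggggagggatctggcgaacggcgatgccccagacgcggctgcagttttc

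Each DAPK1 window held 1 copy of GCGTG and none of ACGTG, and the DAPK2 window was the same in both counts. STK17A had 1 copy of each and STK17B 2 of each, with the 2 ACGTG matches of STK17B overlapping in 1 palindrome, CACGTG. The DAPK3 window had neither. Of 35116 RefSeq windows of this length, 18.5% held ACGTG, 32.2% held GCGTG, 43.2% held at least 1 of them and 6.34% held CACGTG. CpG dinucleotides, the sites at which DNA can be methylated, numbered 32 and 26 in the DAPK1 windows, 27 in DAPK2, 31 in DAPK3, 32 in STK17A and 35 in STK17B, against a median of 11 over all windows and an upper quartile of 23. All 6 windows lay above that quartile, both for genes higher and for genes lower in the overexpression libraries. These matches describe the letters only, and DNA methylation was not measured in these libraries.

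DAPK1 was abundant in the overexpression libraries and close to absent in those labelled wild type. It was at 256, 278 and 247 CPM in overexpression replicates 1, 2 and 3, and at 0.546, 0.563 and 0.419 CPM in the libraries labelled wild type. The groups were far apart, and the counts behind the low values were only 9, 11 and 10 reads, against 5961, 6077 and 5733 reads. The mean was 260.4 ± 15.8 CPM in overexpression libraries, against 0.509 ± 0.0787 CPM in libraries labelled wild type, a 511-fold difference (log2 fold change 9.0, SE 0.13). In bulk RNA a smaller share of cells with a transcript and less of it per cell cannot be told apart. By level DAPK1 ranked 576th of the 16091 tested genes in the overexpression libraries and 14113th in those labelled wild type. Its log2 fold change ranked 139th, and 1.62% of all tested genes had a difference as large or larger in either direction. DAPK1 (ENSG00000196730) lies on chromosome 9, 87497228 to 87708633, plus strand, in GRCh38 (GENCODE release 29).

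**Figure D1:**
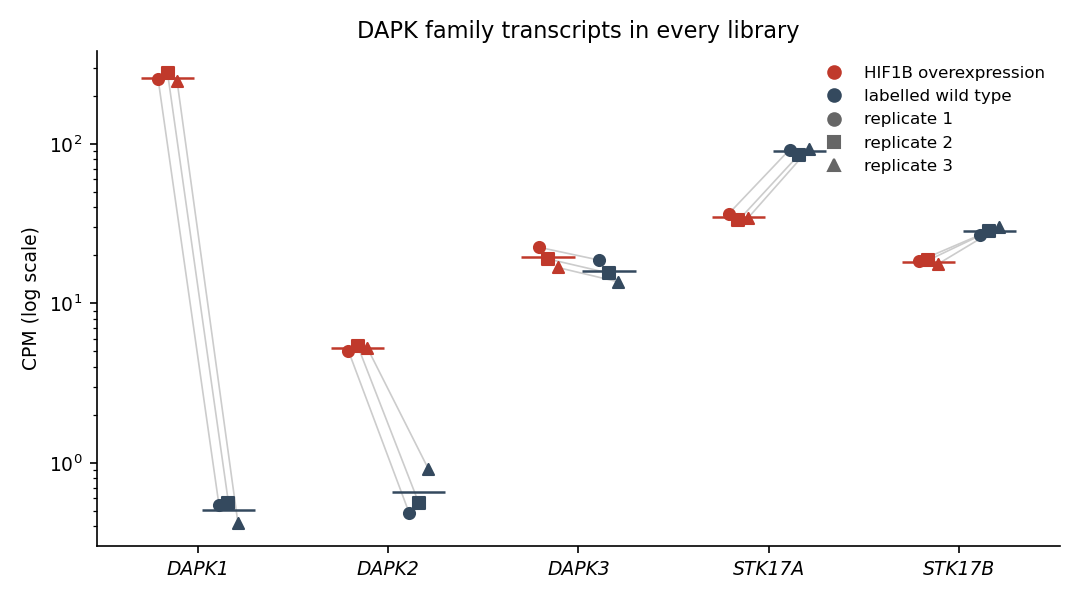
CPM (log scale) of each family member in every library, with HIF1B overexpression in red on the left and the libraries labelled wild type in blue on the right of each gene. Symbols are replicates, horizontal bars are group means (n = 3) and grey lines join libraries of the same replicate number. DAPK1 runs from 247 to 278 CPM in the overexpression libraries and from 0.419 to 0.563 CPM in the others, DAPK3 overlaps between the groups, and STK17A and STK17B lie lower in the overexpression libraries.

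DAPK2, the smaller calmodulin-regulated member known mainly from blood granulocytes, was also higher in the overexpression libraries, at a far lower level. It was at 5.07, 5.40 and 5.26 CPM in overexpression replicates 1, 2 and 3, and at 0.485, 0.563 and 0.922 CPM in the libraries labelled wild type. The overexpression libraries lay close together, and replicate 3 labelled wild type stood above the other two of its group. The means of 5.24 ± 0.165 CPM under overexpression and 0.657 ± 0.233 CPM with the wild-type label differed 7.98-fold (log2 fold change 2.95, SE 0.28), on 358 reads in the overexpression group and 41 reads in the other. Leaving out labelled wild-type replicate 3 gave a log2 fold change of 3.28. DAPK2 (ENSG00000035664) lies on chromosome 15, 63907036 to 64072033, minus strand.

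DAPK3, also called ZIP kinase, phosphorylates myosin light chains and the targeting subunit of myosin phosphatase, and it was the member whose groups overlapped. It was at 22.5, 19.0 and 16.8 CPM in overexpression replicates 1, 2 and 3, and at 18.7, 15.5 and 13.7 CPM in the libraries labelled wild type. Overexpression replicate 3 lay below labelled wild-type replicate 1, yet within each replicate number the overexpression library was the higher one, by 1.21-fold, 1.23-fold and 1.23-fold. The group means of 19.5 ± 2.89 CPM under overexpression and 15.9 ± 2.55 CPM with the wild-type label differed 1.22-fold (log2 fold change 0.29, SE 0.14). With the replicate number as a block, which the labels give as a batch, the log2 fold change was again 0.29 and its SE 0.099. It was 0.17 without overexpression replicate 1 and also without labelled wild-type replicate 3, 0.39 without overexpression replicate 3 and 0.40 without labelled wild-type replicate 1. DAPK3 (ENSG00000167657) lies on chromosome 19, 3958453 to 3971123, minus strand.

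Both DRAK kinases were lower in the overexpression libraries. STK17A was at 36.6, 33.1 and 34.2 CPM in overexpression replicates 1, 2 and 3, and at 92.2, 85.9 and 92.6 CPM in the libraries labelled wild type. No library of either group came near the other group, and the means of 34.7 ± 1.76 CPM under overexpression and 90.2 ± 3.76 CPM with the wild-type label differed 2.60-fold (log2 fold change -1.38, SE 0.073). STK17A (ENSG00000164543) lies on chromosome 7, 43582758 to 43650713, plus strand. It overlaps COA1, a mitochondrial assembly gene on the opposite strand that was chosen after its values were seen and was at 50.9 ± 4.71 CPM under overexpression, against 76.7 ± 1.84 CPM with the wild-type label, so reads of the pair are uncertain, since it is not known whether strand was used in counting.

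STK17B, known in mice as a brake on T cell receptor signalling, differed less. It was at 18.5, 18.7 and 17.7 CPM in overexpression replicates 1, 2 and 3, and at 26.9, 28.4 and 30.0 CPM in the libraries labelled wild type. The ranges were separate, and the means of 18.3 ± 0.532 CPM under overexpression and 28.4 ± 1.55 CPM with the wild-type label differed 1.56-fold (log2 fold change -0.64, SE 0.088). STK17B (ENSG00000081320) lies on chromosome 2, 196133566 to 196176503, minus strand.

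Across the family, the CPM ranges of the groups were separate for 4 of 5 members, where the same held for 77.3% of all tested genes. The members were chosen from this comparison and most genes differed in it, so nothing is read from that count. Differences as large as that of DAPK2 or larger, in either direction, were found in 14.6% of all tested genes. The same share was 76.5% for DAPK3, 28.8% for STK17A and 53.7% for STK17B. The direction of each of the 5 differences was the same under every scaling, filter, tool and left-out library tried.

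**Figure D2:**
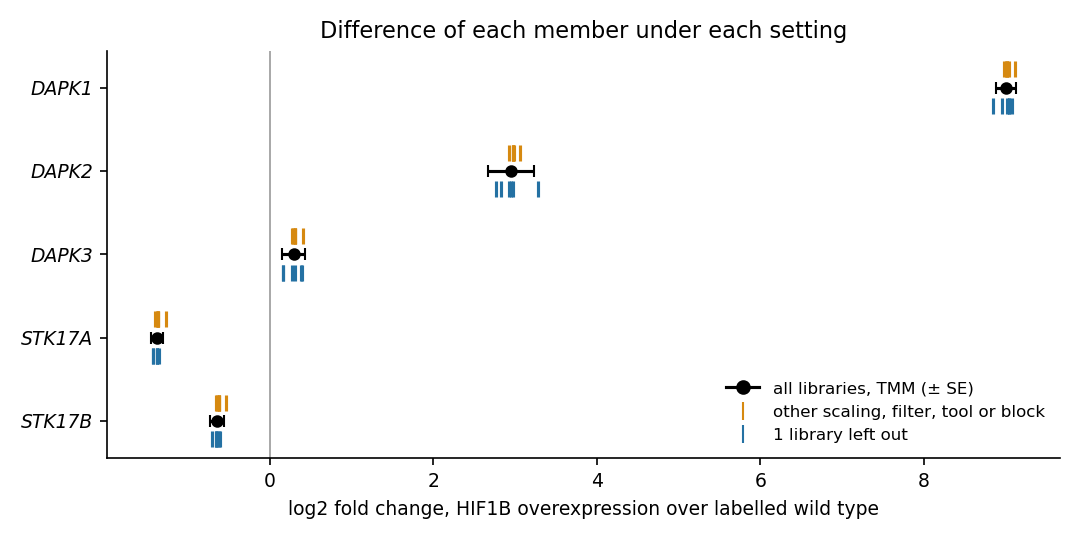
Log2 fold change of each member, HIF1B overexpression over labelled wild type (x axis), as black points with SE for all 6 libraries under TMM scaling. Orange ticks are other scalings, filters, tools or the replicate block, and blue ticks leave out 1 library each. DAPK1 stays between 8.84 and 9.11, and DAPK3 between 0.17 and 0.41, the closest of the members to 0.

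The make-up of the family was compared per transcript length, as CPM per kilobase of annotated exon (8907 bases for DAPK1, 13612 for DAPK2, 3549 for DAPK3, 5099 for STK17A and 6580 for STK17B). In the overexpression libraries DAPK1 led at 29.2 ± 1.77 CPM per kilobase and made up 65.4% of the family's summed level. STK17A followed at 6.80 ± 0.345 and DAPK3 at 5.48 ± 0.814 CPM per kilobase, with ranges that just missed each other, the lowest STK17A library at 6.50 and the highest DAPK3 library at 6.35. With the longest annotated transcript as the length, which was chosen as an alternative after seeing the data, these ranges overlapped, the lowest STK17A library at 9.84 and the highest DAPK3 library at 9.99 CPM per kilobase. STK17B was at 2.78 ± 0.0809 and DAPK2 last at 0.385 ± 0.0121 CPM per kilobase.

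In the libraries labelled wild type STK17A led instead, at 17.7 ± 0.737 CPM per kilobase and 66.5% of the summed level. DAPK3 at 4.49 ± 0.718 and STK17B at 4.32 ± 0.236 CPM per kilobase did not differ beyond their spread. With the longest transcript as the length, that pair was at 7.07 ± 1.13 and 5.38 ± 0.294 CPM per kilobase and no longer overlapped. DAPK1 at 0.0572 ± 0.00884 and DAPK2 at 0.0482 ± 0.0171 CPM per kilobase overlapped at the bottom of the order. The summed level of the family was 44.7 ± 2.11 CPM per kilobase in the overexpression libraries and 26.6 ± 0.949 in those labelled wild type. Without DAPK1 the order turned round, at 15.4 ± 1.13 CPM per kilobase under overexpression, against 26.6 ± 0.951 in libraries labelled wild type. The other 4 members together were 1.72-fold lower in the overexpression libraries. In CPM per kilobase, the largest change among these members was in STK17A, at 6.80 under overexpression, against 17.7 with the wild-type label. STK17B was also lower, whereas DAPK2 and DAPK3 were higher under overexpression. As a fold, the difference of DAPK2 (7.98-fold) was larger than that of STK17A (2.60-fold).

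**Figure D3:**
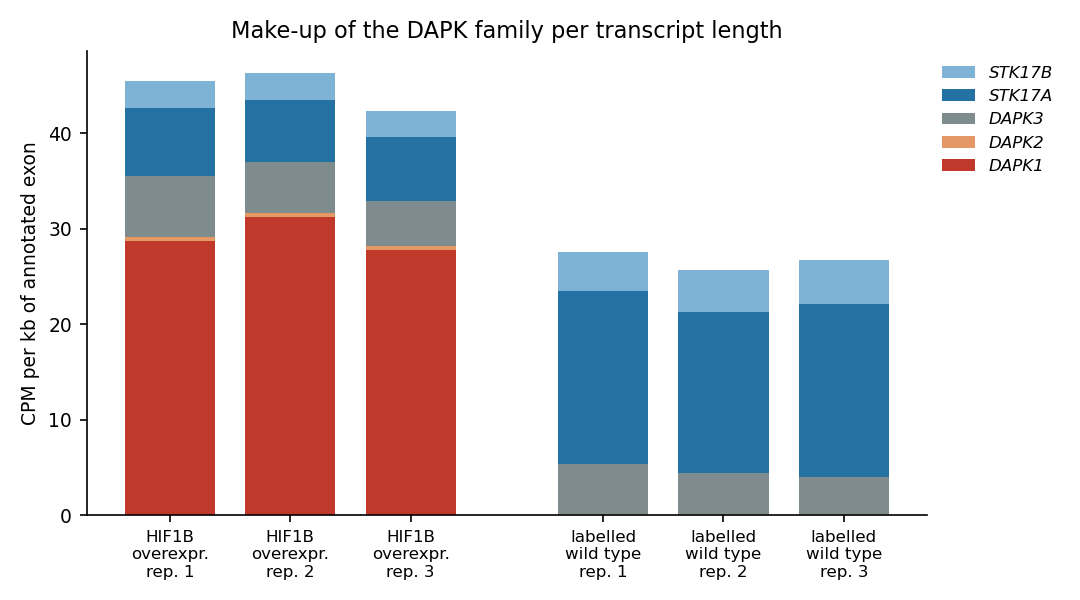
Stacked CPM per kilobase of annotated exon (y axis, from 0) of the 5 members in each library, the HIF1B overexpression libraries on the left and those labelled wild type on the right. DAPK1 (red) fills 65.4% of the bars on the left on average and cannot be seen on the right, where STK17A (dark blue) fills 66.5%.

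How much replicates varied is described for each member, on n = 3 libraries per group, and differences between members were not tested. Counting error, which is larger where reads are few, was not taken out. The coefficient of variation of DAPK1 was 6.05% in the overexpression libraries and 15.5% in those labelled wild type, where reads were few, where the medians over all tested genes were 9.63% under overexpression and 9.65% with the wild-type label. DAPK2 varied by 3.14% under overexpression and 35.4% with the wild-type label, on 41 reads in that group. DAPK3 varied by 14.8% under overexpression and 16% with the wild-type label. STK17A varied by 5.07% under overexpression and 4.17% with the wild-type label, and STK17B by 2.91% under overexpression and 5.47% with that label. The DAPK3 libraries deviated from their group mean in the same direction at each replicate number, which held for DAPK1 at replicates 2 and 3 only.

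The genes whose pattern over the 6 libraries was closest to DAPK1, by the root mean square distance of log2(CPM + 0.5) after centring each gene, were ELF3 (distance 0.14), RTN4RL2 (0.22), DCDC2 (0.23), TNS4 (0.24) and NRP2 (0.28). ELF3, an epithelial transcription factor gene, was at 199.6 ± 19.8 CPM in overexpression libraries, against 0.180 ± 0.120 CPM in libraries labelled wild type. TNS4, a focal adhesion gene, was at 157 ± 13.9 CPM under overexpression, against 0.338 ± 0.0393 CPM with the wild-type label, and NRP2, a semaphorin and VEGF co-receptor gene, at 180.4 ± 14.4 CPM under overexpression, against 0.446 ± 0.250 CPM with the wild-type label. All 5 were above 100 CPM in the overexpression libraries, and in the libraries labelled wild type they had 9 to 25 reads over the group, except RTN4RL2 with 181 reads (3.08 ± 0.717 CPM). The high levels under overexpression follow largely from the rule, which picks genes with a gap between the groups like that of DAPK1. For DAPK3 the closest were PANK4 (0.038), FAM72C (0.044), MTND2P28 (0.067), CKMT2-AS1 (0.074) and HOXB9 (0.078). FAM72C and MTND2P28 have near-identical copies in the genome, so their counts are uncertain. PANK4, a pantothenate kinase relative, was at 15.7 ± 2.21 CPM under overexpression, against 12.5 ± 1.94 CPM with the wild-type label. Genes chosen for their likeness were not tested.

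Over all tested genes, 74.0% passed an edgeR adjusted p of 0.05, 38.3% higher and 35.7% lower in the overexpression libraries, and the counts of the lists around the family are set against that. The 23 listed genes whose products act on DAPK1 were all tested. Of these 12 were higher, 10 lower and 1 did not pass; the median log2 fold change was 0.39, against 0.03 over all tested genes. CALM3, a calmodulin gene, was at 496 ± 12.0 CPM in overexpression libraries, against 129.7 ± 8.49 CPM in libraries labelled wild type (log2 fold change 1.94, SE 0.071, edgeR adjusted p = 1.9e-09). CALM2, another calmodulin gene, chosen after its values were seen, was at 764 ± 4.90 CPM under overexpression, against 499 ± 43.0 CPM with the wild-type label. The largest differences were in UNC5 netrin receptors, of which UNC5B is known to signal death through DAPK1. UNC5B was 78.2-fold lower, at 2.07 ± 0.408 CPM under overexpression, against 162 ± 22.8 CPM with the wild-type label (edgeR adjusted p = 1.3e-10). UNC5A was 7.56-fold higher at 1.12 ± 0.446 CPM under overexpression, against 0.148 ± 0.0846 CPM with the wild-type label (edgeR adjusted p = 0.00091). UNC5A had 76 reads in the overexpression libraries and only 9 reads in the others, so its fold is imprecise. RPS6KA1, a kinase that phosphorylates DAPK1, did not pass, at 30.4 ± 2.14 CPM under overexpression, against 29.4 ± 2.34 CPM with the wild-type label.

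Known substrates and partners split evenly, with 9 of 22 tested higher, 9 lower and 4 not passing (median log2 fold change -0.08). With library totals as the only scaling 10 were higher and 5 lower, and the median was 0.04. TPM1, a tropomyosin gene whose product DAPK1 phosphorylates, was 5.19-fold higher at 274 ± 27.2 CPM under overexpression, against 52.7 ± 3.01 CPM with the wild-type label (edgeR adjusted p = 2.2e-09). STAT3, a transcription factor that DAPK3 phosphorylates, was 2.88-fold higher at 196 ± 7.54 CPM under overexpression, against 68.1 ± 1.99 CPM with the wild-type label (edgeR adjusted p = 6.7e-09). PAWR, which encodes the DAPK3 partner Par-4, was 4.13-fold lower at 102 ± 4.55 CPM under overexpression, against 423 ± 24.1 CPM with the wild-type label (edgeR adjusted p = 1.4e-09), and PRKD1, protein kinase D1, was 3.01-fold lower. BECN1, the autophagy gene whose product DAPK1 phosphorylates, was chosen after its values were seen and was at 82.8 ± 3.85 CPM under overexpression, against 46.7 ± 0.912 CPM with the wild-type label.

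Actomyosin genes, the contractile side of the family's work, also went both ways, with 10 of 24 tested higher, 8 lower and 6 not passing (median 0.05). With library totals 12 were higher and 6 lower. MYLK, the calcium-dependent myosin light chain kinase, was 78.8-fold higher at 119 ± 5.98 CPM under overexpression, against 1.51 ± 0.822 CPM with the wild-type label (log2 fold change 6.29, SE 0.22, edgeR adjusted p = 1.2e-09). PPP1R14C, an inhibitor of protein phosphatase 1, had 66 reads in the overexpression libraries and 1 read in those labelled wild type, a 57.8-fold ratio of summed counts with a 95% counting interval of 10.0 to 2319. The small GTPase gene RHOB was 9.79-fold lower at 72.3 ± 9.46 CPM under overexpression, against 707 ± 130.1 CPM with the wild-type label (edgeR adjusted p = 6.6e-09), and LIMK2, a kinase that inactivates cofilin, was 5.23-fold lower at 8.65 ± 1.06 CPM under overexpression, against 45.3 ± 3.55 CPM with the wild-type label. MYL9, a smooth muscle type light chain gene chosen after its values were seen, had 1 read in all 6 libraries.

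Among 15 tested kinases of the neighbouring calcium and calmodulin branches, 6 were higher, 8 lower and 1 did not pass (median -0.21). CAMK1D had 2987 reads in the overexpression libraries and 2 reads in the others, a 1309-fold ratio of summed counts (95% counting interval 362 to 10814). It was at 38.0, 53.3 and 40.4 CPM in the overexpression libraries and at 0, 0 and 0.0838 CPM in those labelled wild type. DCLK1, a doublecortin-like kinase gene, was 64.3-fold lower at 0.412 ± 0.283 CPM under overexpression, against 26.5 ± 2.63 CPM with the wild-type label (edgeR adjusted p = 2.3e-08), and PRKD3 was 5.87-fold lower at 59.4 ± 4.33 CPM under overexpression, against 349 ± 45.2 CPM with the wild-type label. CAMKK1 did not pass (edgeR adjusted p = 0.054), but passed with the replicate block (0.0044), without overexpression replicate 3 (0.032) and without labelled wild-type replicate 2 (0.029).

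Autophagy genes, which act downstream of DAPK1 and DAPK2, lay on both sides. Of 29 tested, 12 were higher, 8 lower and 9 did not pass (median -0.09, and 0.02 with library totals). ULK2, a kinase that starts autophagy, was 3.39-fold higher at 46.7 ± 2.58 CPM under overexpression, against 13.8 ± 1.01 CPM with the wild-type label (edgeR adjusted p = 3.1e-08), and PIK3R4, which belongs to the lipid kinase complex that Beclin 1 binds, was 1.95-fold higher at 35.4 ± 2.14 CPM under overexpression, against 18.2 ± 0.193 CPM with the wild-type label. GABARAPL1, an autophagosome membrane gene, was 2.43-fold lower at 36.8 ± 7.35 CPM under overexpression, against 89.4 ± 8.0 CPM with the wild-type label (edgeR adjusted p = 5.3e-06), and ATG101 was 1.67-fold lower.

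Death receptor and caspase genes counted 9 of 24 tested higher, 13 lower and 2 not passing (median -0.32). TNFRSF10D, a decoy receptor for the death ligand TRAIL, was 233-fold higher at 35.5 ± 3.53 CPM under overexpression, against 0.152 ± 0.152 CPM with the wild-type label (edgeR adjusted p = 3.3e-09). That fold is imprecise, since TNFRSF10D had only 8 reads in the libraries labelled wild type. The apoptosis inhibitor BIRC3 was 5.12-fold higher. The inflammatory caspase gene CASP4 was 9.74-fold lower at 7.05 ± 1.47 CPM under overexpression, against 68.7 ± 4.42 CPM with the wild-type label (edgeR adjusted p = 4e-09). BIRC5 did not pass, at 176 ± 21.3 CPM under overexpression, against 187 ± 6.96 CPM with the wild-type label. RIPK1 did not pass either (edgeR adjusted p = 0.062), but did with the replicate block (0.049), with DESeq2 size factors (0.046) and without labelled wild-type replicate 3 (0.017).

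Factors known from other cells to bind the DAPK1 promoter or to regulate DNA methylation were 8 of 23 higher, 10 lower and 5 not passing (median -0.05, and 0.07 with library totals). The list pools enzymes that add DNA methylation with enzymes that remove it. TET1, an enzyme that removes DNA methylation, was 6.41-fold higher at 5.24 ± 0.140 CPM under overexpression, against 0.817 ± 0.164 CPM with the wild-type label (edgeR adjusted p = 2.8e-06), and SMAD3, which carries TGF-β signals, was 3.04-fold higher at 320.3 ± 10.6 CPM under overexpression, against 105 ± 17.7 CPM with the wild-type label. KLF4, a zinc finger factor, was 5.54-fold lower at 11.2 ± 1.03 CPM under overexpression, against 62.3 ± 8.36 CPM with the wild-type label (edgeR adjusted p = 1.4e-08), and NFKB1 was 2.06-fold lower.

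In the interferon gamma path through which DAPK1 was found, 6 of 12 tested genes were higher, 4 lower and 2 not passing (median 0.19). IRF1, an interferon-induced transcription factor, was 2.10-fold higher at 15.6 ± 1.06 CPM under overexpression, against 7.42 ± 0.142 CPM with the wild-type label (edgeR adjusted p = 1.7e-05). EIF4G2, a translation factor gene from the same HeLa screen, was 1.77-fold higher. SOCS3, a feedback inhibitor of cytokine signalling, was 4.17-fold lower at 39.1 ± 1.70 CPM under overexpression, against 163 ± 28.6 CPM with the wild-type label (edgeR adjusted p = 6.8e-08), and DAP3, a mitochondrial ribosome gene from the screen, was 2.22-fold lower at 85.5 ± 3.42 CPM under overexpression, against 189.8 ± 2.60 CPM with the wild-type label. IFNGR2 did not pass, at 29.2 ± 2.94 CPM under overexpression, against 30.5 ± 3.30 CPM with the wild-type label. CTSD did not pass at 389 ± 16.9 CPM under overexpression, against 433 ± 35.0 CPM with the wild-type label (edgeR adjusted p = 0.082), but did with the replicate block (0.033) and without labelled wild-type replicate 3 (0.019). In these lists the share of genes past the threshold was to be read against 74.0% of all tested genes, and the groups compared also differed in MTAP and in the epithelial markers, whose part in these differences was not tested.

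**Figure D4:**
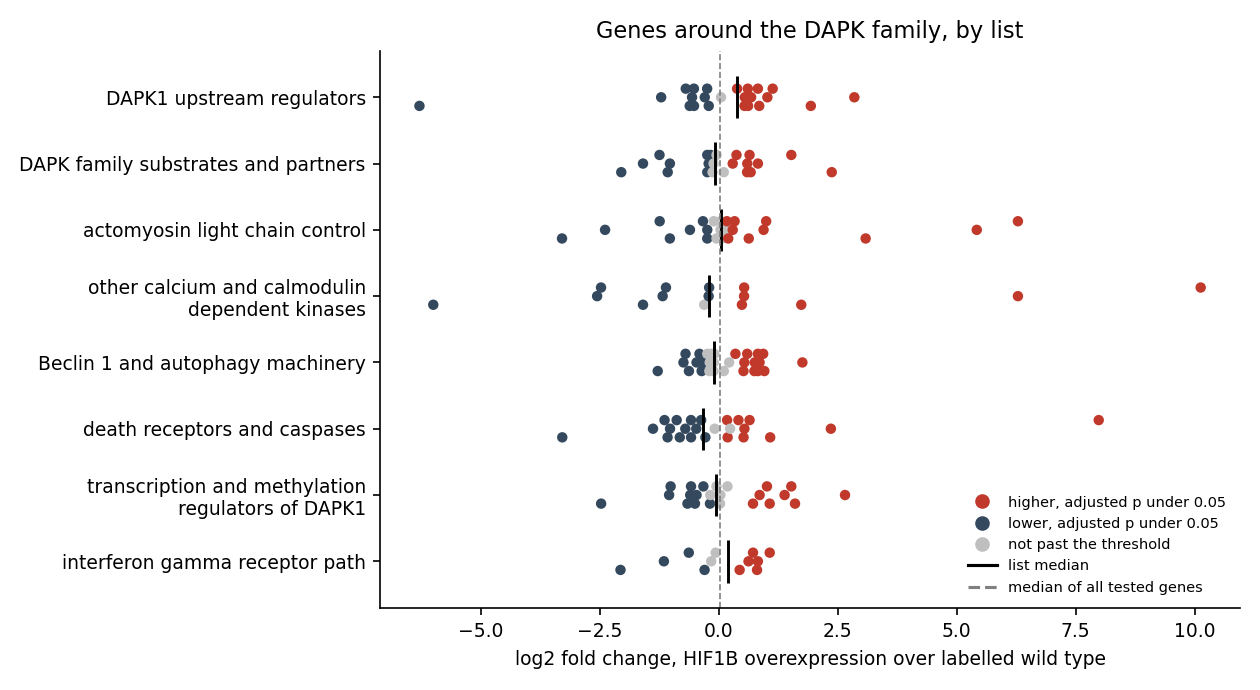
Log2 fold change, HIF1B overexpression over labelled wild type (x axis), of each tested gene in 8 lists around the family. Red points were higher and blue points lower at an edgeR adjusted p under 0.05, grey points did not pass, black bars are list medians and the dashed line is the median of all tested genes (0.03). Each list holds genes on both sides of 0, and its median lies between -0.32 and 0.39.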

How the data were processed

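RNA was sequenced from 3 libraries labelled A549 HIF1B overexpression and 3 labelled A549 wild type. The authors deposited estimated counts per gene, credited to salmon by the table's name; the submitters' processing notes name bcl2fastq 2.20 and GRCh38. For salmon no version, annotation or strand setting was stated in these sources. PolyA RNA is the labels' molecule, but their protocol names a ribosomal depletion kit. Another 6 columns, named H460, matched no sample and were left out. Counts were rounded before testing; the share that was not whole (tolerance 1e-06) reached 9.51%. Symbols matched 61481 of 78932 gene IDs (77.9%); positions and exon lengths came from GENCODE release 29.

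Genes were kept by filterByExpr (smallest count 10), scaled by TMM and tested with edgeR 4.0.16 (R 4.3.3; quasi-likelihood F test, no replicate term, Benjamini-Hochberg adjustment over all 16091 tested genes, threshold 0.05); DESeq2 1.42.0 was an alternative. A simulated data set was used to check the steps. An SE is the log2 fold change divided by the square root of F. Folds are ratios of mean CPM, or of summed counts where a group had 3 reads or fewer; 3 reads over a group equal 0.0439 CPM in overexpression libraries, against 0.0501 CPM in libraries labelled wild type. Intervals cover counting error only.

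The members and gene lists were chosen with earlier results of these data known. Named genes are the 5 members, the pair of genes highest and the pair lowest by log2 fold change among those called in each list, uncalled genes where a list had 3 or fewer, marker genes, ARNT, the 5 genes most like DAPK1 and DAPK3, and the 3 nearest tested genes on each side of DAPK1; some genes this names are not reported here. The labels give the replicate number as a batch, which pairs the libraries. Deviations from the group means of libraries with the same number correlated by 0.023, 0.12 and 0.079 across genes. Pairs with different numbers were there at -0.098 to 0.024. Across the more highly expressed genes same-number pairs were at 0.16, 0.22 and 0.28, and pairs with different numbers at -0.24 to -0.03. Deviations from a group mean cancel within the group, so positive values for some pairs bring negative values for others. No 2 libraries repeated each other (chi-square per degree of freedom 6.03 to 15.8 within groups).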

Additional observations from a re-analysis of the deposited data

How the results depend on the processing

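In all, 186 repeats of 21 values were computed under other scalings, filters, tools, a replicate block, left-out libraries and another transcript length, and 183 stayed within the spread between libraries or, for counts and SDs, within 1.5 times. With library totals as the only scaling, which moved the median over all tested genes to 0.15 on the log2 scale, STK17A was at -1.27 and STK17B at -0.53. With the longest transcript as the length, STK17A made up 68.0% of the family in the libraries labelled wild type. With the replicate block, DAPK1 was at a log2 fold change of 9.0; of the genes in the lists that the text names, CAMKK1, RIPK1 and CTSD changed their call. Leaving out 1 library at a time gave log2 fold changes of 8.84 to 9.08 for DAPK1, 2.77 to 3.28 for DAPK2, 0.17 to 0.40 for DAPK3, -1.42 to -1.35 for STK17A and -0.70 to -0.61 for STK17B, and 11356 to 11895 genes past the threshold. The few reads of DAPK1 and DAPK2 in the libraries labelled wild type limit the precision of their folds.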

Other observations

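The tested genes nearest to DAPK1 on chromosome 9 did not share one direction. Downstream of it, CTSL, a lysosomal protease gene that starts 16886 bases beyond its end, was at 182 ± 4.27 CPM in overexpression libraries, against 499 ± 28.8 CPM in libraries labelled wild type (log2 fold change -1.45, SE 0.068, edgeR adjusted p = 1.3e-08). CDK20, a cyclin-dependent kinase gene, was at 5.75 ± 1.43 CPM under overexpression, against 7.70 ± 0.276 CPM with the wild-type label and did not pass (edgeR adjusted p = 0.082). SPIN1, a histone mark reader gene, was at 109 ± 1.87 CPM under overexpression, against 112 ± 3.93 CPM with the wild-type label and did not pass (edgeR adjusted p = 0.57). Upstream, at 455102 to 495195 bases, the noncoding gene GAS1RR was 51.1-fold lower at 0.0574 ± 0.0497 CPM under overexpression, against 2.93 ± 0.432 CPM with the wild-type label. That fold is imprecise, since GAS1RR had only 4 reads in the overexpression libraries, against 174 reads in the others. The pseudogene CDC20P1, whose counts are uncertain because it resembles its parent gene, was at 8.03 ± 0.769 CPM under overexpression, against 0.0698 ± 0.121 CPM with the wild-type label. LINC02893 had 64 reads in the overexpression libraries and 1 read in the others.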
